A study of Mus musculus with 10 samples.

Results

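Arterial endothelial cells line the arteries and arterioles that bring blood into the cortex. They were examined here in single-cell RNA sequencing of the mouse medial prefrontal cortex. The members are 282 barcodes, each standing for 1 captured cell, of 48816 barcodes kept over all 10 libraries and of 3704 kept endothelial barcodes. They were chosen by their raw UMI counts, where 1 UMI (unique molecular identifier) stands for 1 RNA molecule caught. A barcode was kept when it held at least 500 genes and at most 15% mitochondrial UMIs. It was called endothelial when Cldn5, Flt1, Pecam1, Cdh5 and Itm2a together gave at least 4 UMIs with Cldn5 at 1 or more, when genes of neurons, pericytes, oligodendrocytes and microglia (Slc17a7, Gad1, Gad2, Vtn, Kcnj8, Mog and Cx3cr1) together gave at most 1, and when the smooth muscle genes Acta2 and Tagln together gave at most 2. It was called arterial when Gkn3, Bmx and Sema3g together gave at least 2. The 3213 endothelial barcodes at 0 of these 3 genes, here called other endothelial cells, served for comparison, and the 209 barcodes at exactly 1 were kept apart.

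The mice were male C57BL/6N, a common inbred strain, and were over 2 months old. They had been ranked by the tube test, a contest in a narrow tube that ends when 1 mouse retreats. The Rank1 group (social dominants, 5 libraries) and the Rank4 group (social subordinates, 5 libraries) differed only in that rank as far as the labels say, and the labels name no transgene and no drug for either. Every library pooled tissue punches of 2 or 3 mice taken 1 day after the last test and digested with papain at 37 °C for 60 min, so the library was the replicate and single mice cannot be told apart.

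Arteries, capillaries and veins of the brain carry 1 continuous sheet of endothelium whose cells change their gene use along the way. Arterial identity is known to depend on Notch signalling: Delta-like and Jagged ligands on 1 cell activate Notch receptors on its neighbour, and the freed receptor fragment joins the DNA-binding protein RBPJ to switch on Hey and Hes repressors. Arteriolar endothelium of the brain is known for many caveolae and for an elastic wall, whereas the capillary endothelium carries most of the nutrient transporters of the blood-brain barrier and keeps few caveolae.

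Library totals ran from 4442750 to 29278466 UMIs, and 1464 to 13745 barcodes were kept per library. The files of replicates 1 to 3 name an earlier software version than those of replicates 4 and 5, with another gene list, and the 30406 genes in both lists were used. A pair of libraries shared up to 42 kept barcode sequences. No sequence was arterial in more than 1 library, and 5 arterial sequences were also kept in another library outside the arterial group. Replicate 1 of both ranks stood apart in how many barcodes held red blood cell transcripts, not in their level. In these libraries 16 of 21 and 12 of 27 arterial barcodes held over 5 haemoglobin UMIs, against 0 to 5 barcodes in each of the other libraries. The summed level there was not high: Hbb-bs, a haemoglobin gene, was at 799 and 906 CPM in replicate 1 of Rank1 and Rank4, against 24.5 to 13740 CPM in the others. Without such barcodes, results are given for the total counts of called genes, the capillary list, Car4, Rgs5 and the count by rank. Counts of some other lists also changed without them and are not given.

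The 4 genes that mark these cells, Gkn3, Bmx, Sema3g and Cldn5, are all part of the rule, so their levels describe the choice and cannot test the label. In the arterial barcodes Gkn3, a gastrokine family gene, averaged 2250 ± 1074 CPM (counts scaled to a common UMI total, mean ± SD over 10 libraries). The gene lies on chromosome 6 at 87383256 to 87388935 (GRCm38). Bmx, a Tec family kinase, averaged 263 ± 96.5 CPM and Sema3g, a secreted semaphorin, 355 ± 141 CPM. The first 3 are 0 in the other endothelial cells by the same rule. Gkn3 was present in 239 of the 282 barcodes, Bmx in 122 and Sema3g in 149. The 3 genes occurred together in 52 barcodes, and 83 barcodes had Gkn3 alone. At the edge of the rule stood 66 barcodes with a sum of exactly 2 and 48 with a sum of 3, while 168 had 4 or more, up to 82. Cldn5, the claudin of the blood-brain barrier, averaged 4860 ± 1119 CPM in arterial and 5618 ± 1059 CPM in other endothelial cells.

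Arterial barcodes were deeper than the other endothelial ones, with a median of 2214 against 1254 UMIs and of 1272 against 830 genes. The rule asks for 2 UMIs of 3 genes, which a deeper barcode reaches more readily. Median mitochondrial shares were 4.16% and 4.38%. The comparison was therefore repeated with barcodes of at least 1000 UMIs, each thinned to 1000 UMIs, which left 242 arterial and 2145 other endothelial barcodes. These had been chosen by the rule at full depth, so the link of the choice to depth remains in that comparison. The rule itself caps smooth muscle, pericyte and neuronal genes, so single genes and sums given for other cell types leave out the genes of the rule, and the cap bears on the others too. Of smooth muscle genes, Cnn1 and Lmod1 gave 0 UMIs in all arterial barcodes, Pln gave 1 and Des gave 3. Myl9 averaged 14.1 CPM in arterial and 13.9 CPM in other endothelial cells, against 6376 CPM in smooth muscle reference barcodes (chosen by Acta2, Tagln and Myh11). Other members had higher means in arterial than in other endothelial cells: Mylk with 72 arterial UMIs, Tpm2 at 7.35 against 2.96 CPM and Myh11 at 3.22 against 0.60 CPM. The sum of the 8 listed smooth muscle genes outside the rule was higher in arterial cells in 9 of 10 libraries. Mylk gave 72 of its 97 arterial UMIs, and without Mylk the sum was higher in 6 of 10. Of pericyte genes, Abcc9 gave 0 UMIs and Higd1b gave 8, while Rgs5 gave 136 UMIs in 29 arterial barcodes. It stood at 664 and 597 CPM in replicate 1 of Rank1 and Rank4 and at 0 to 96.6 CPM in the other libraries. The sum of the 7 pericyte genes outside the rule reached 732 CPM in Rank1 and 636 CPM in Rank4 arterial cells, against at most 253 and 279 CPM in other endothelial cells, and was higher in arterial cells in 3 of 10 libraries. The part of mural cell RNA in the results below was not tested beyond the alternative with Acta2 and Tagln at 0. At 1000 UMIs the neuronal gene Snap25 was seen in 22.3% of arterial, 31.9% of other endothelial and 19.0% of smooth muscle barcodes, against 66.5% of excitatory neuron barcodes.

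Promoters of 4 genes are shown because they mark both ends of the expression differences described next: Gkn3 and Sema3g, which chose the cells, Fbln5, whose fold change was the highest of all genes tested, and Car4, whose fold change was the lowest. Each runs from 250 bases before to 50 bases after the gene's start, read 5′ to 3′ along the gene, from the RefSeq promoter table on build GRCm38.p6. Capitals mark the letters TGGGAA, or TTCCCA on the other strand, the core that RBPJ is known to prefer. The places are chr6:87388886-87389185 on the minus strand for Gkn3, chr14:31217623-31217922 on the plus strand for Sema3g, chr12:101819070-101819369 on the minus strand for Fbln5 and chr11:84957504-84957803 on the plus strand for Car4.
Gkn3: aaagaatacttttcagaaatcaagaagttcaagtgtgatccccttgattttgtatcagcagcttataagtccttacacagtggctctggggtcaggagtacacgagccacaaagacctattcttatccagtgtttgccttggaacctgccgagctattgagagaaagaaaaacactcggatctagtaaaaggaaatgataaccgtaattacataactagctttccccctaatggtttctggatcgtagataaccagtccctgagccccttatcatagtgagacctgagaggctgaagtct
Sema3g: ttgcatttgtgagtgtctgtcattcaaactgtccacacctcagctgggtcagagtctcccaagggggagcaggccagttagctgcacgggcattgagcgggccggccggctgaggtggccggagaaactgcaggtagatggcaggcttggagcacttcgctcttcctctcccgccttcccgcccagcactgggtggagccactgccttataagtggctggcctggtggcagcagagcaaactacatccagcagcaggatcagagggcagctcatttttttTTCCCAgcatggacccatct
Fbln5: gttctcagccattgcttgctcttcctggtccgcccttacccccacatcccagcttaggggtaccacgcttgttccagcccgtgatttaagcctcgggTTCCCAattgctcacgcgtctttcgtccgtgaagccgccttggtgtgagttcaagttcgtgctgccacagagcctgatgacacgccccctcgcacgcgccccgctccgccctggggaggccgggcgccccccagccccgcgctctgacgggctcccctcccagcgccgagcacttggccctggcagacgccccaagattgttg
Car4: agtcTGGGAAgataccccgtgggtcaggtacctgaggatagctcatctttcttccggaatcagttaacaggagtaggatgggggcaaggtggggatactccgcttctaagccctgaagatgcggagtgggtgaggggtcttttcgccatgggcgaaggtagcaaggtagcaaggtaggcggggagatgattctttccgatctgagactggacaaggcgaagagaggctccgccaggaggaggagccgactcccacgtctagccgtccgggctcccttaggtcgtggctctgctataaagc

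These 300-base windows of Sema3g, Fbln5 and Car4 each held 1 match and the window of Gkn3 held none. The second start listed for Fbln5 had no match. Bmx and Slc38a5 also held 1 match each, and Vegfc and Egfl8 none. Over all 32851 promoter windows of the same length, 25.6% held the letters on either strand. By gene, 28.3% of all 27025 genes with a window held them. The share was 25.4% among the 2938 tested genes with a window and 29.9% among 301 genes called higher in arterial cells. Only 318 of the 406 genes called lower had a window, under the 80% needed, so no share is given for them. Hey1 and Mgp had no window. A match is a string of letters in a window and says nothing of binding.

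Compared with the other endothelial cells of the same libraries, arterial cells were higher in 7 and lower in 2 of 13 tested matrix genes, with Mgp and Fbln5 among the higher ones. Of 9 tested Notch pathway genes 6 were higher and 2 lower, with the target Hey1 higher and the target Hes1 lower, and at matched depth 3 were higher and 2 lower. Of 15 capillary genes 12 were lower, Car4 and Tfrc among them. Summed UMIs per library and cell group were compared with edgeR's quasi-likelihood test with the library as a block, the 17 genes of the rule were left out, and Benjamini-Hochberg adjusted p-values under 0.05 over 3613 genes were called. Of these genes 368 (10.2%) were higher and 406 (11.2%) were lower in arterial cells, with a median log2 fold change of -0.03 over all of them. In the depth-matched comparison at 1000 UMIs, 132 were higher and 316 lower and the median was -0.20, and 362 genes were called in both, all in the same direction. With DESeq2, 291 were higher and 321 lower. Cells had been chosen on 3 arterial genes, so a call says how the chosen cells differ. The filter was met through arterial cells alone by 255 genes, Mgp among them, and through the other cells alone by 200, Car4 among them. Counts and medians over the tested members of a list are therefore descriptions and support nothing further. Also, the lists below were put together with earlier results of these data known.

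Mgp, the matrix Gla protein that keeps vessel walls from calcifying, lies on chromosome 6 at 136872435 to 136875823 (GRCm38). It had the largest log2 fold change among genes that were higher in all 10 libraries. Its arterial levels were 777, 1150, 831, 1285 and 1570 CPM in Rank1 replicates 1 to 5 and 386, 155, 509, 1646 and 743 CPM in Rank4 replicates 1 to 5. In the other endothelial cells it ran from 3.85 to 37.3 CPM, so the lowest arterial library lay above the highest other one. The log2 fold change was 5.90 (SE 0.17, adjusted p = 1.6e-27). In reference barcodes Mgp averaged 543 CPM in smooth muscle and 650 CPM in pericytes. At 1000 UMIs it was seen in 34.3% of arterial, 1.26% of other endothelial and 24.0% of smooth muscle barcodes. The depth-matched log2 fold change was 5.77.

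Of the matrix list, Fbln5, Eln, Fbln2 and Ltbp4 were higher too, while Efemp1 and Emilin1 were too low to be tested. Fbln5, fibulin 5, which helps to assemble elastic fibres, was at 45.0, 334, 269, 334 and 128 CPM in Rank1 and at 9.64, 93.2, 114, 309 and 0 CPM in Rank4 arterial cells. The other endothelial cells had at most 3.85 CPM. Its log2 fold change was 6.04 (SE 0.37, adjusted p = 3.8e-16), higher in 9 of 10 libraries, and it was at 0 in the smooth muscle reference. Eln, the gene of elastin itself, averaged 121 ± 100 CPM against 8.62 ± 5.46 (log2 fold change 3.56), and Fbln2, fibulin 2, 123 ± 71.3 against 9.71 ± 5.19 (3.67). Ltbp4, which tethers TGF-beta to elastic fibres, averaged 913 ± 303 against 375 ± 69.8 CPM. Col18a1, the basement membrane collagen that yields endostatin, averaged 106 ± 48.5 against 2.99 ± 3.16 CPM (4.53).

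Of the 13 tested genes of the 21-gene matrix list, 7 were higher and 2 were lower. The 2 lower ones were Sparc (log2 fold change -0.42) and Sparcl1 (-0.92), secreted proteins that bind collagen. Fn1 (0.06) and Col4a2 (0.11), which form the basement membrane of every vessel, did not pass the test. The list median was 0.50, against -0.03 over all genes tested.

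**Figure D1:**
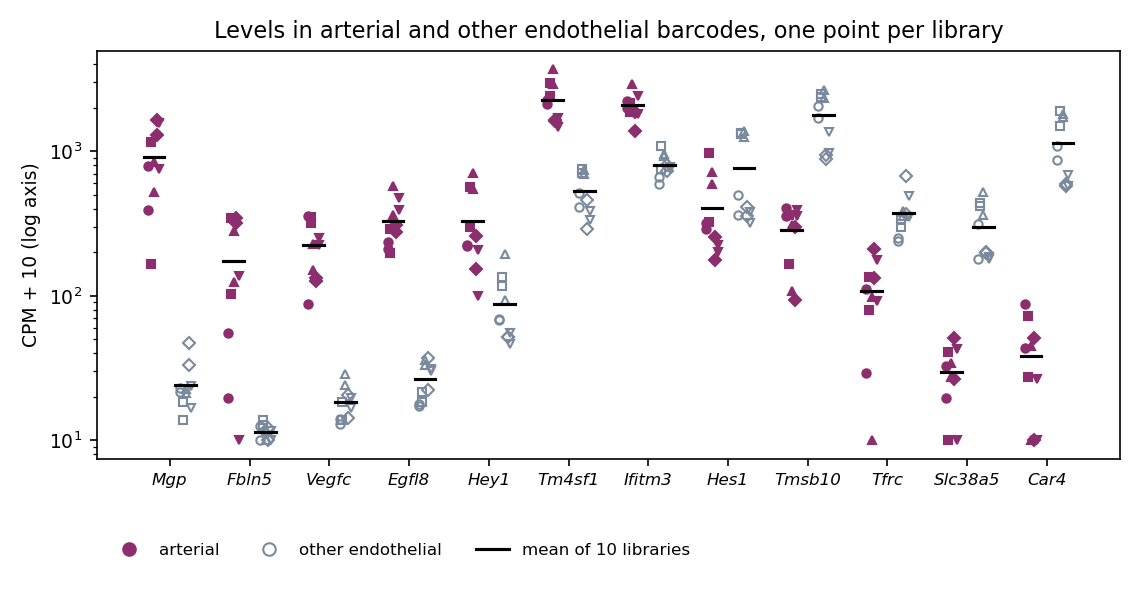
Each point is the level of a gene in 1 library, in CPM plus 10 on a log axis, for arterial barcodes (filled) and other endothelial barcodes (open), with bars at the mean of 10 libraries and marker shapes for replicates 1 to 5 (circle, square, triangle, diamond, inverted triangle). Mgp, Fbln5, Vegfc and Egfl8 sit high in arterial barcodes, and Tmsb10, Tfrc, Slc38a5 and Car4 sit high in the others.

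Of the 20-gene arterial identity list 16 genes were tested, and 15 were higher, none lower, with 12 higher at matched depth and 13 with DESeq2. Vegfc, a growth factor best known for lymphatic vessels, ran from 77.1 to 349 CPM over arterial libraries and was far lower in the other endothelial cells, where it ran from 2.92 to 18.7 CPM (log2 fold change 4.53, SE 0.26). Egfl8, a secreted EGF-domain protein, averaged 322 ± 120 against 16.6 ± 7.84 CPM (4.19), and Igfbp3, an insulin-like growth factor binding protein, 179 ± 143 against 10.9 ± 10.0 CPM (3.73). Gja4, the arterial connexin 37 of gap junctions, averaged 99.2 ± 49.7 against 7.66 ± 3.92 CPM (3.61). In reference barcodes Gja4 averaged 590 CPM in smooth muscle and 267 CPM in pericytes, above its arterial level. Efnb2, the ephrin that marks arteries against veins, averaged 146 ± 109 against 45.3 ± 14.0 CPM (1.53). Alpl, alkaline phosphatase, averaged 299 ± 105 against 53.3 ± 16.8 CPM (2.39).

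Sox17, a transcription factor of arterial fate, differed less, at 428 ± 148 against 325 ± 170 CPM (log2 fold change 0.41, adjusted p = 0.040, higher in 7 of 10 libraries). Nrp1, the VEGF co-receptor often used as an arterial mark, was at 163 ± 89.6 and 163 ± 40.7 CPM and did not pass the test (-0.20). Gja5, connexin 40, and Cytl1, a secreted protein, were too low to be tested. Gja5 averaged 16.6 ± 12.9 CPM and Cytl1 31.9 ± 44.0 CPM in arterial barcodes, and both were at 0 in every other endothelial sum. Many of these genes had been placed in the list from earlier results of these data, so the count of 15 is no independent support of the label.

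The Notch list showed both directions. Of 16 genes 9 were tested, 6 were higher and 2 were lower. The receptors Notch1 (286 ± 110 against 150 ± 30.9 CPM, log2 fold change 0.81) and Notch4 (101 ± 64.2 against 43.5 ± 6.47 CPM, 1.13) were higher. So were the ligands Dll4 (192 ± 43.0 against 98.0 ± 47.1 CPM, 0.97), Jag1 (88.5 ± 35.9 against 37.7 ± 16.9 CPM, 1.25) and Jag2 (279 ± 107 against 121 ± 41.4 CPM, 1.19). In the depth-matched comparison 3 of 9 were higher and 2 lower, and Notch1 was no longer called (log2 fold change 0.65, adjusted p = 0.052).

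The targets of Notch differed from each other. Hey1, a repressor switched on by Notch, was at 214, 290, 538, 250 and 89.3 CPM in Rank1 and at 212, 559, 694, 144 and 198 CPM in Rank4 arterial cells. The other endothelial cells of the same libraries had 36.5 to 183 CPM. Hey1 was higher in all 10 libraries (log2 fold change 1.94, SE 0.17, adjusted p = 5.3e-12), although the ranges overlapped between libraries. Hes1, another repressor of the same family, was lower in all 10, at 399 ± 265 against 752 ± 486 CPM (-1.02, SE 0.13, adjusted p = 3.9e-08). Mfng, a fringe enzyme that adds sugars to Notch, was lower as well (-0.75), in 7 of 10 libraries. Hey2 was too low to be tested, at 6.82 ± 9.47 CPM in arterial barcodes.

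Capillary genes were low. Of the 15 genes of the capillary list, all tested, 12 were lower and none was higher, with a median log2 fold change of -1.25. Car4, a carbonic anhydrase anchored to the capillary surface, gave 33.8, 17.6, 0, 0 and 0 CPM in Rank1 and 77.1, 62.2, 35.1, 41.2 and 16.5 CPM in Rank4 arterial cells. In the other endothelial cells it ran from 564 to 1898 CPM, so the groups did not overlap. The log2 fold change was -5.31 (SE 0.21, adjusted p = 9.7e-23). At 1000 UMIs Car4 was seen in 2.89% of arterial barcodes, 49.2% of other endothelial barcodes, 12.1% of smooth muscle barcodes and 2.51% of excitatory neurons, and its mean in pericyte reference barcodes was 786 CPM.

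Transport genes of the capillary list followed. Slc16a1, the lactate carrier MCT1, averaged 117 ± 70.7 against 455 ± 139 CPM (log2 fold change -2.14), and Slc7a5, the large neutral amino acid carrier LAT1, 174 ± 108 against 573 ± 280 CPM (-1.91). Tfrc, the transferrin receptor that brings in iron, averaged 97.5 ± 60.8 against 365 ± 127 CPM (-1.97). Mfsd2a, the lipid carrier that keeps caveolae few in capillaries, differed less, at 186 ± 64.7 against 290 ± 43.5 CPM (-0.75). The 3 list members that did not pass were Spock2 (-0.19), Slco1c1 (0.17), the thyroxine carrier, and Slc16a4 (-0.38).

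Of the wider list of barrier transporters 15 of 16 genes were tested, 3 were higher and 8 lower, and 1 was higher and 7 lower at matched depth. The higher ones were Slc6a6, the taurine carrier (1802 ± 633 against 835 ± 204 CPM, log2 fold change 1.00, and 0.76 at matched depth), Slc9a3r2, a scaffold of membrane transporters (0.50), and Slc2a1, the glucose carrier GLUT1 (1840 ± 556 against 1402 ± 459 CPM, 0.33). The lower ones included Slc22a8, an organic anion carrier (-1.42), Slco2b1 (-1.23) and Fcgrt, the receptor that recycles antibodies (-1.04). Abcb1a, the drug pump P-glycoprotein, did not pass (0.08). Of the junction list 9 of 12 genes were tested and F11r, the junctional adhesion molecule A, alone was higher (0.47, adjusted p = 0.022), 1 of 9 where 10.2% of all genes were. The F11r call was lost in 9 of the settings tried, at matched depth among them (0.32, adjusted p = 0.54), with adjusted p from 0.011 to 0.58 over all settings. Ocln (0.04), the gene of occludin, and Tjp1 (-0.17), of the junction scaffold ZO-1, did not pass.

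Caveolar genes went the other way from Mfsd2a. Of 7 tested genes of 8, 6 were higher and none lower, with a median of 0.85, and 4 of 7 were higher at matched depth. Cav1, the coat protein of caveolae, averaged 255 ± 125 against 150 ± 50.6 CPM (log2 fold change 0.70), and Cavin2, which bends the membrane, 652 ± 197 against 345 ± 90.4 CPM (0.85). The ATPases Ehd2 (1.38) and Ehd4 (1.43), which hold the necks of caveolae, had the larger differences. Cav2 did not pass (0.20). Ehd2, Cavin3 and Ehd4 were also present in smooth muscle reference barcodes, at 226, 501 and 139 CPM.

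The venous list was mixed, with 3 of 6 tested genes higher and 2 lower. Slc38a5, a glutamine carrier of veins and capillaries, gave 19.6 ± 13.7 against 290 ± 129 CPM (log2 fold change -4.18, SE 0.27). Icam1, the leukocyte adhesion molecule, was lower (-1.67), in 8 of 10 libraries. Vcam1, also a leukocyte adhesion molecule, averaged 244 ± 195 against 50.8 ± 52.8 CPM and was higher in all 10 libraries (2.10). Vwf, the von Willebrand clotting factor, was higher in 9 of 10 (236 ± 167 against 113 ± 49.9 CPM, 0.90). Nr2f2 and Ackr1, defining venous genes, were too low to be tested.

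Among signals to the vessel wall, Edn1, the gene of the constrictor endothelin 1, averaged 499 ± 161 against 185 ± 56.3 CPM (log2 fold change 1.32, higher in all 10 libraries). Adm, the dilator adrenomedullin, was lower (26.8 ± 44.9 against 77.9 ± 52.0 CPM, -1.51), and so was Ramp2, part of its receptor (-0.37). Ece1, which processes endothelin, did not pass (0.33, adjusted p = 0.078), and neither did Nos3, the endothelial nitric oxide synthase (173 ± 53.7 against 137 ± 36.4 CPM, 0.20). These are 3 called of 7 tested genes in a list of 16. Of the flow-related list, Tek (0.52) and Klf6 (0.35) were higher of 7 tested, and Klf2 (0.10) and Klf4 (0.00), the transcription factors raised by laminar flow, did not pass. At matched depth neither Tek nor Klf6 was called higher. Of the 7 genes 1 was lower there, and the list median was -0.11, against 0.19 without thinning.

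Of 13 tested genes of BMP and TGF-beta signalling 6 were higher and none lower (median 0.34), and 4 were higher at matched depth (median 0.14). Tgfb2, a TGF-beta ligand, was higher in all 10 libraries (235 ± 111 against 76.7 ± 30.2 CPM, log2 fold change 1.52). Smad6, an inhibitor of BMP signalling, averaged 85.2 ± 50.6 CPM against 17.8 CPM, with a highest value of 33.7 CPM, in the others (2.01), and Eng, the co-receptor endoglin, 813 ± 189 against 505 ± 65.0 CPM (0.60). Id1, a target of BMP signalling, was at 0.00. In the VEGF and guidance list 2 of 10 tested genes were higher and 3 lower. Kdr, the main VEGF receptor, was lower in all 10 libraries (218 ± 87.5 against 410 ± 138 CPM, -0.95), as was Sema3c (-0.66), and Sema6a was lower in 9 (-1.38). Unc5b, a netrin receptor, was higher (1.57).

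The inflammation and interferon list had 11 of 13 tested genes higher and 1 lower, and 8 higher and 1 lower at matched depth. The list median was 0.76. Ifitm3, an interferon-induced membrane protein, ran from 1385 to 2909 CPM in arterial cells and from 584 to 1085 CPM in the others, with no overlap (log2 fold change 1.31, SE 0.09, adjusted p = 1.7e-14). B2m, the light chain of class I antigen presentation, averaged 1469 ± 960 against 714 ± 465 CPM (0.93), and the heavy chains H2-D1 (0.94) and H2-K1 (0.76) were higher too. Ly6c1 (0.87) and Ly6a (0.87), surface proteins of endothelium and blood cells, were higher in all 10 libraries. The summed level of the 9 microglia and macrophage genes outside the rule, which was higher in arterial cells in 2 of 10 libraries, ran from 97.8 to 948 CPM in Rank1 and from 124 to 607 CPM in Rank4 arterial cells, against 178 to 1242 and 364 to 1057 CPM in the others. Its part in the result was not tested.

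Stress genes were lower or mixed. Of 10 heat shock genes, all tested, 6 were lower and none higher (list median -0.37), with Dnajb1 at -1.01 and Hspa1a at -0.81. The metallothioneins Mt1 (456 ± 210 against 1081 ± 359 CPM, log2 fold change -1.34) and Mt2 (-1.40), which bind zinc and copper, were lower in all 10 libraries. With Cdkn1a they were the 3 lower genes of 9 tested glucocorticoid-response genes, none of which was higher. The Cdkn1a call (-0.30, adjusted p = 0.022) was lost in 6 of the settings tried, with adjusted p up to 0.61. Of 17 tested immediate early genes, which cells switch on within minutes of a stimulus, 5 were higher and 2 lower. Fos (0.54), Fosl2 (0.84) and Egr3 (0.89) were higher and Jun was lower (-0.40). At matched depth, with barcodes under 1000 UMIs left out, none was higher and 5 were lower. There Fosl2 was at 0.58, Egr3 at 0.52, Fos at 0.24 and Atf3, another of the 5 higher genes, at -0.0012. The list median was -0.19, against 0.155 without thinning. With DESeq2 3 were higher. The cause was not tested.

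**Figure D2:**
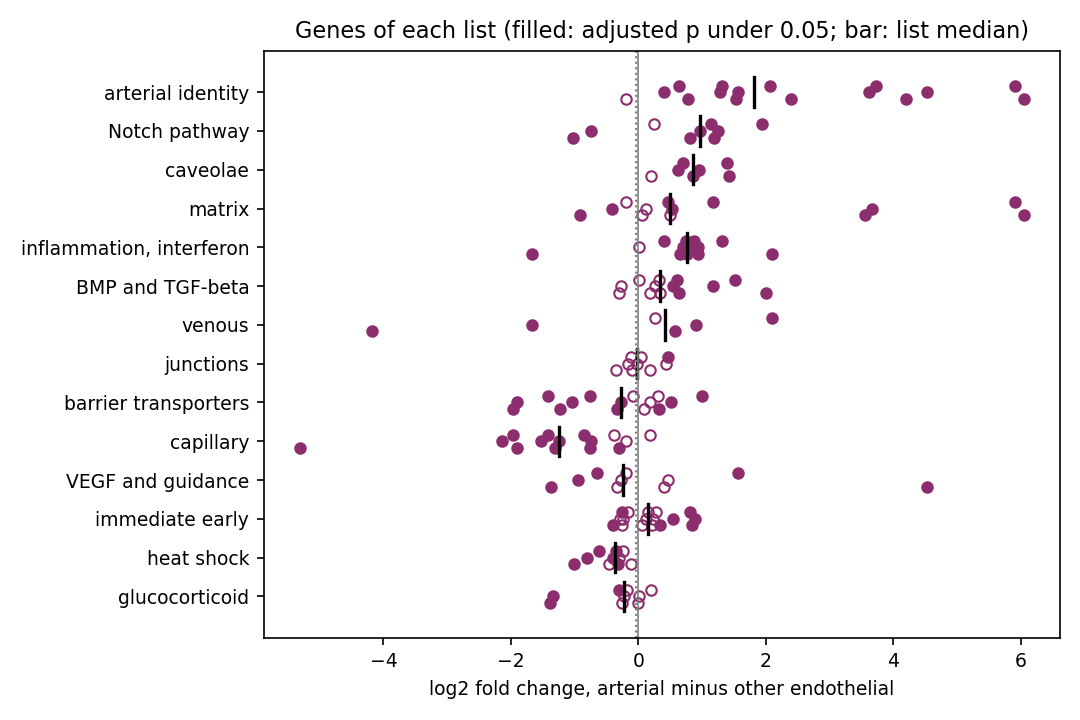
Each point is the log2 fold change (arterial minus other endothelial) of 1 tested gene of a list, filled where the adjusted p was under 0.05, with a bar at the list median and a dotted line at the median of all 3613 tested genes. The arterial identity, Notch and caveolar medians lie right of 0 at 1.82, 0.97 and 0.85, and the capillary median lies left of 0 at -1.25.

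Further genes were named for the size of their change and 1 direction in every library. Lrrc32, which presents latent TGF-beta on the cell surface, averaged 198 ± 132 against 18.9 ± 16.2 CPM (log2 fold change 3.19), and Gper1, a membrane oestrogen receptor, 91.5 ± 65.0 against 10.2 ± 3.59 CPM (3.05). Mylk, the myosin light chain kinase, was higher in all 10 libraries (2.92), and Tmem100, a target of ALK1 signalling, averaged 138 ± 87.6 against 18.4 ± 11.7 CPM (2.80). Cp, the copper carrier ceruloplasmin (2.73), Eps8l2, an actin regulator (2.68), Ccnd2, cyclin D2 (2.43), and Ssfa2 (2.41) completed the 15. Gper1, Mylk and Ccnd2 were at 779, 1447 and 528 CPM in smooth muscle reference barcodes, above their arterial level, and Eps8l2 was at 0 there. Summed over the 8 smooth muscle genes outside the rule, the level was 100.1 to 171 CPM in Rank1 and 20.6 to 164 CPM in Rank4 arterial cells, and 11.2 to 48.3 CPM in other endothelial cells. Without Mylk, which is itself among the genes named here, it was 0 to 56.3 and 0 to 77.1 CPM against 3.74 to 36.5 CPM. Its part in the result was not tested. With Acta2 and Tagln required at 0, 744 genes were called in place of 774, 726 of them shared.

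The lower genes seen in every library included Tmsb10, the actin-binding thymosin beta 10, at 274 ± 117 against 1773 ± 701 CPM (log2 fold change -2.64), and Ctla2a, a protease inhibitor, at 227 ± 181 against 1453 ± 366 CPM (-2.77). Proser2 (-2.83), Hmcn1, the matrix protein hemicentin 1 (-2.70), Bok, of the BCL2 family (-2.46), 4430402I18Rik (-2.13) and Tiam1, an activator of RAC1 (-2.06), followed. Ctla2a, Gbp4, the haemoglobins, the metallothioneins, the Ly6 genes and the class I genes have close copies, so their counts are less certain. Many named genes overlap other annotated genes, among them Egfl8, Eln, Ace, Nos3, Col18a1, Mylk, Notch1, Edn1, Vcam1 and Ramp2, and their counts are less certain too.

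Marker genes of neurons, astrocytes, microglia and red blood cells were lower in arterial barcodes where called, and their part in the lower calls was not tested beyond the haemoglobin check given here. Of the tested marker genes, 4 of 6 neuronal, 5 of 6 astrocyte, 3 of 5 microglial and 5 of 5 erythroid genes were lower and none was higher. The 6 neuronal genes outside the rule summed to 416 to 2781 CPM in Rank1 and 509 to 2394 CPM in Rank4 arterial cells, against 700 to 3018 and 739 to 3869 CPM in other endothelial cells. The 5 erythroid genes summed to 147 to 16520 and 2534 to 34710 CPM in arterial cells and to 4945 to 53730 and 8171 to 42400 CPM in the others. Without the barcodes that held over 5 haemoglobin UMIs, which left 9 libraries with enough arterial barcodes, 328 genes were higher and 389 lower, the capillary list still had 12 of 15 lower, and Car4 was at -5.66. Mal, a myelin gene that endothelium also carries, was higher in all 10 libraries (0.98), unlike Mbp, the myelin basic protein gene, which was lower (-0.70). The sum of the 6 oligodendrocyte genes outside the rule was higher in arterial cells in 7 of 10 libraries, and in 2 of 10 without Mal. No fibroblast gene was abundant enough to be tested, and Col1a1, Col1a2, Col3a1 and Lum were at 0. Of 9 pericyte genes Rgs5 alone was tested and did not pass (0.56, adjusted p = 0.18). Its value was -1.22 with DESeq2 and -0.17 without the barcodes rich in haemoglobin. Leaving out replicate 1 of Rank1 or of Rank4 gave 0.02 and 0.13, and it passed without Rank1 replicate 2 (0.80, adjusted p = 0.037) and without Rank4 replicate 3 (0.82, adjusted p = 0.026).

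Levels by the summed UMIs of Gkn3, Bmx and Sema3g are given as a description, since these steps are drawn from the counts the rule read. Hey1 averaged 78.2 CPM where Gkn3, Bmx and Sema3g were at 0, 182 CPM where their sum was 1, 311 CPM at 2 and 321 CPM at 3 or more. Mgp averaged 14.2, 102, 83.5 and 1123 CPM over the same 4 steps, and Vegfc 8.27, 78.1, 49.0 and 250 CPM. Fbln5 averaged 1.46, 24.2, 0 and 203 CPM. Car4 went the other way, at 1127, 282, 59.0 and 17.8 CPM, and Slc38a5 at 290, 70.6, 48.6 and 9.82 CPM. Mgp, Vegfc and Fbln5 were lower at a sum of 2 than at 1. Only 66 barcodes had a sum of 2. Arterial barcodes were deeper than those at 0, as given above, so the steps may also differ in depth, which was not examined step by step.

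**Figure D3:**
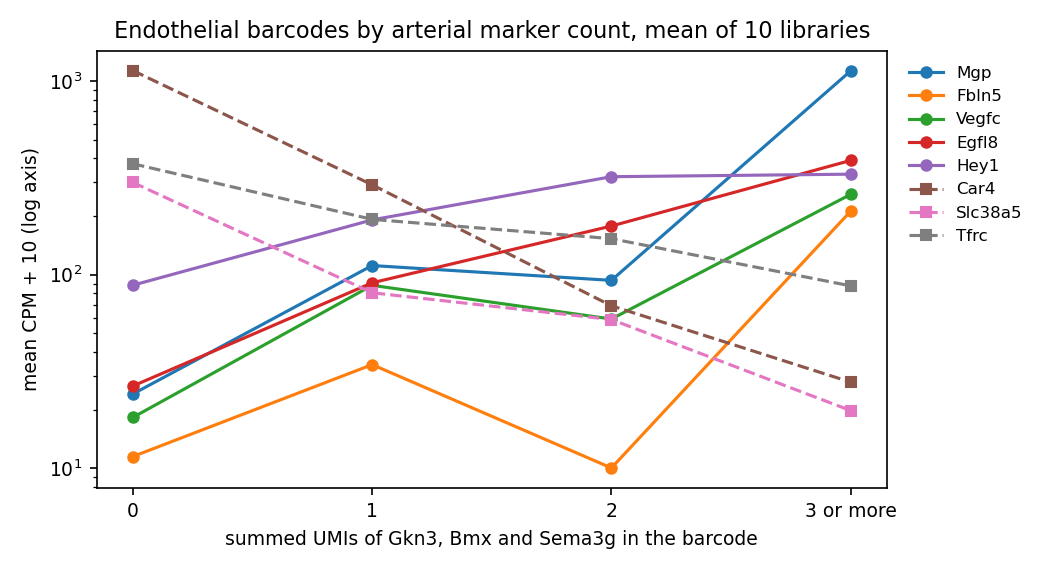
The mean level over 10 libraries, in CPM plus 10 on a log axis, is drawn for 8 genes against the summed UMIs of Gkn3, Bmx and Sema3g in the barcode. Mgp, Fbln5, Vegfc, Egfl8 and Hey1 (solid lines) end higher than they start, and Car4, Slc38a5 and Tfrc (dashed) end lower.

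Arterial barcodes were also compared among themselves by Gkn3. Since Gkn3 is part of the rule, barcodes without it had to pass through Bmx and Sema3g, so this is a description of the choice, and nothing is supported by it. In the 5 libraries that had at least 5 barcodes of each kind, 110 barcodes with Gkn3 were compared with 34 without it. In these libraries the mean depth was 2509 UMIs with and 2212 without Gkn3, and over all arterial barcodes the median sum of the 3 arterial genes was 5 against 2. The barcodes without Gkn3 thus lay nearer the edge of the rule. Of 3742 genes put through edgeR, 20 were higher with Gkn3 (0.534%) and 0 were lower (0%), a count given without reading anything from it. At an unadjusted p under 0.05, 318 were higher and 22 lower, and the median log2 fold change over all genes was 0.29.

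Mgp averaged 1373 ± 655 CPM with and 157 ± 175 CPM without Gkn3, and its level also differed by the sum of the 3 arterial genes, as given above. Fbln5 gave 46 UMIs with Gkn3 and 0 without. Egfl8 averaged 375 ± 115 against 121 ± 79.9 CPM and Nos3 214 ± 54.3 against 36.7 ± 82.0 CPM. Mt1 averaged 339 ± 252 with and 852 ± 580 CPM without Gkn3.

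Hbb-bs averaged 6080 CPM with and 11090 CPM without Gkn3, where a single library stood at 52960 CPM. Against the direction of these means, the fit had this haemoglobin gene among the 20 higher with Gkn3. That call was lost in 4 of the settings tried. The count of 20 rested on few barcodes. With DESeq2, Mgp alone was called, and the count was 9 without Rank1 replicate 5, 13 without Rank4 replicate 1 and 3 without Rank4 replicate 5.

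The share of arterial barcodes was compared by rank, since the study asked how dominants and subordinates differ. Of the endothelial barcodes 6.52%, 17.1%, 9.94%, 11.1% and 7.32% were arterial in Rank1 replicates 1 to 5, and 8.36%, 6.88%, 8.94%, 6.73% and 4.12% in Rank4. The means were 10.4 ± 4.20% and 7.01 ± 1.87% (SD, n = 5 libraries each). The groups overlapped, with Rank1 replicate 2 above all others (95% Wilson interval 13.0% to 22.2%, counting error only). The difference of 3.40 percentage points gave p = 0.13 in a two-sided exact permutation test over 252 divisions, and Rank1 was higher in 4 of 5 replicate numbers. Without Rank1 replicate 1 the difference was 4.37 points and p = 0.040, and without Rank1 replicate 2 it was 1.72 points and p = 0.25, both by the same exact test. Within replicates 1 to 3 it was 3.13 points and within replicates 4 and 5 it was 3.79 points, where the smallest p allowed is 0.10 and 0.33.

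For the depth-matched share, Gkn3, Bmx and Sema3g were counted anew after thinning to 1000 UMIs. The means were then 7.33 ± 3.33% and 5.78 ± 2.03%, 1.56 points apart (exact permutation p = 0.46). Of all kept barcodes, arterial ones made up 0.999 ± 0.745% in Rank1 and 0.636 ± 0.345% in Rank4 (exact permutation p = 0.41). Without Rank1 replicate 2 that difference of 0.363 points came to 0.0535 points.

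**Figure D4:**
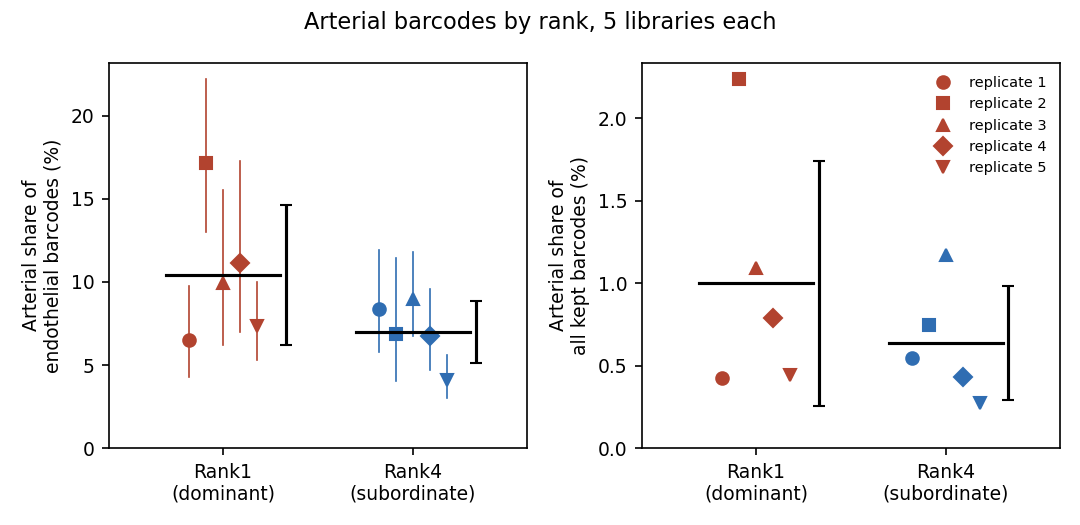
The arterial share of endothelial barcodes (left) and of all kept barcodes (right), in percent, is drawn for each of 5 Rank1 and 5 Rank4 libraries, with the group mean (horizontal bar), its SD (black whisker) and, on the left, each library's 95% Wilson interval. Rank1 replicate 2 lies at 17.1% and 2.24%, and the ranges of the groups overlap.

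No gene was called between ranks within arterial cells. Sums per library were fitted with edgeR's quasi-likelihood test with the gene-list version as a covariate. Of 3615 genes 0 passed (0%), and the smallest adjusted p was 1.00. At an unadjusted p under 0.05, 66 genes were higher in Rank1 (1.83%) and 53 were lower (1.47%), and DESeq2 called 0 with 47 at that level. That total of 119 genes became 234 with the replicate number as a block (0 called, smallest adjusted p 0.15), 213 without Rank1 replicate 1, 196 without Rank4 replicate 3 and 200 without the barcodes rich in haemoglobin. It was 63 without the covariate, 56 with the libraries of replicates 1 to 3 alone and 210 with those of 4 and 5 alone. The rank groups did not overlap in 18 genes (0.498%). Each library had 13 to 44 arterial barcodes and 32180 to 113900 UMIs in them. The values below are descriptions of the genes with the smallest p. Ace, Frmd6, Lama5 and Mfng had a Rank4 mean, and Caml, 4933434E20Rik and Ppard a Rank1 mean, under the filter of 50 CPM, so each was tested only because it was high in the other rank.

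Uaca, a regulator of cell death, was at 383, 658, 660, 651 and 536 CPM in Rank1 and at 183, 280, 378, 267 and 347 CPM in Rank4. Every Rank1 library lay above every Rank4 library (log2 fold change 0.94, SE 0.28, unadjusted p = 0.0032). In the other endothelial cells of the same libraries it was 0.22. Ace, the angiotensin-converting enzyme of the endothelial surface, had 3 to 9 UMIs per library in Rank1 and 0, 0, 5, 0 and 1 UMIs in Rank4. Its levels were 90.8 ± 24.5 and 12.1 ± 19.2 CPM (2.28, SE 0.61, unadjusted p = 0.0013), and the log2 fold change was 4.01 without Rank4 replicate 3 (adjusted p = 0.094), the library with 5 UMIs, and 4.44 at matched depth. Frmd6, a scaffold of the Hippo pathway, was at 77.6 ± 33.4 and 24.7 ± 6.02 CPM (1.58) with no overlap.

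Vcam1 was at 135, 413, 733, 250 and 191 CPM in Rank1 and at 86.7, 186, 176, 165 and 99.1 CPM in Rank4 (log2 fold change 1.19, unadjusted p = 0.0070). It was higher in Rank1 in 5 of 5 replicate numbers although the groups overlapped, and its value in other endothelial cells was 0.79 (unadjusted p = 0.22). Gbp4, an interferon-induced GTPase, was at 149 ± 52.5 and 66.0 ± 52.3 CPM (1.41). Vwf was at 310 ± 199 and 161 ± 97.5 CPM (0.90), and at 0.82 in other endothelial cells (unadjusted p = 0.019).

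Of the matrix list 15 genes were tested between ranks, 12 had a positive log2 fold change and 4 had an unadjusted p under 0.05, all with higher values in Rank1. Lama4, Lama5 and Hspg2 passed the filter only through Rank1, so these counts are a description and support nothing. Mgp was at 1123 ± 328 and 688 ± 576 CPM (0.83, unadjusted p = 0.019), with Rank4 replicate 4 the highest library of all. Eln was at 168 ± 95.8 and 73.5 ± 88.4 CPM (1.27). The laminin genes Lama5 (1.28) and Lamb2 (0.77), of the basement membrane, were at 92.5 ± 29.1 against 37.2 ± 37.2 CPM and at 260 ± 121 against 137 ± 56.3 CPM. Beside these, in the same fit, 0 of 4 tested erythroid genes had a positive value (median -1.14), as had 1 of 6 neuronal (-0.38), 1 of 5 astrocyte (-0.28) and 4 of 4 microglial genes (0.27), none of them called, against 1783 of all 3615 genes. Their part in the result was not tested. All 4 named matrix genes overlapped between ranks, and Mgp, Eln and Lama5 were too low to be tested in other endothelial cells.

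Further list members with an unadjusted p under 0.05 were Mfng (1.37, no overlap), Ehd4 (0.95) and Ece1 (0.67), with higher values in Rank1, and Hspb1, a small heat shock protein (-0.68), Mt1 (-0.69) and Hbb-bt, a haemoglobin gene (-1.76), with lower ones. Ece1 was at 0.00 in the depth-matched comparison. Mt1 was at 348 ± 57.5 and 565 ± 257 CPM, but within replicates 4 and 5 its log2 fold change was 0.01. Of 10 heat shock genes 9 had a negative value, with a median of -0.32.

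The lower genes with the smallest p were Caml, a protein that inserts membrane proteins (34.2 ± 16.5 against 79.9 ± 13.2 CPM, log2 fold change -1.36, unadjusted p = 0.0056, no overlap), AW112010 (-0.92), 4933434E20Rik (-1.31), Pglyrp1, which binds bacterial cell walls (270 ± 132 against 433 ± 43.3 CPM, -0.79), and Ppard, a nuclear receptor (-1.27). Their values in other endothelial cells were 0.35, -0.16, -0.25, -0.14 and 0.11.

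**Figure D5:**
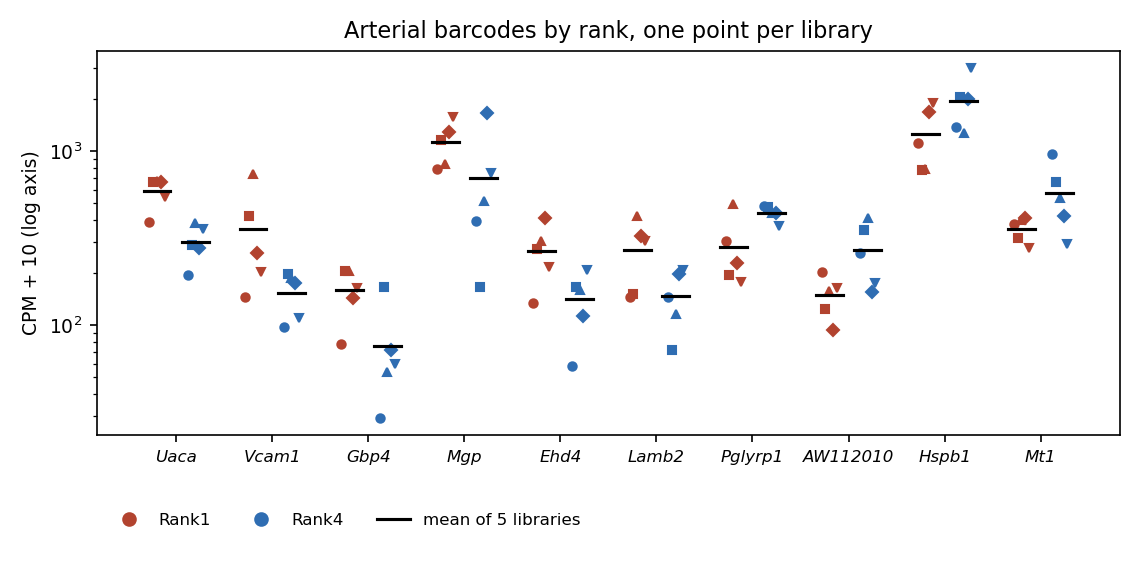
Each point is the level of a gene in the arterial barcodes of 1 library, in CPM plus 10 on a log axis, for Rank1 (red) and Rank4 (blue), with a bar at the mean of 5 libraries and marker shapes for replicates 1 to 5 (circle, square, triangle, diamond, inverted triangle). Uaca separates the ranks, while Vcam1, Gbp4, Mgp, Ehd4, Lamb2, Pglyrp1, AW112010, Hspb1 and Mt1 overlap, and none of the 10 passed the adjusted test.

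Whether rank acted differently on arterial and other endothelial cells was tested as an interaction with edgeR's quasi-likelihood test. Of 3613 genes 0 passed (0%), with 169 at an unadjusted p under 0.05 (4.68%), and DESeq2 called 0 with 76 at that level. Meg3, a long noncoding RNA abundant in neurons, had the smallest adjusted p (0.12) with a difference of 1.25 on the log2 scale, followed by Clu, the chaperone clusterin (1.36, adjusted p = 0.99). Caml had the smallest p among negative differences (-1.72, adjusted p = 0.99). Beside these, 6 of 6 tested neuronal marker genes had a positive difference (median 0.33), as had 6 of 6 astrocyte (0.38) and 5 of 5 microglial genes (0.69), and 0 of 5 erythroid genes (-1.20), against 1829 of all 3613 genes. Their part in the result was not tested. Clu averaged 427 ± 154 CPM in Rank1 and 280 ± 67.1 CPM in Rank4 arterial cells. Without Rank1 replicate 1 Clu was called (1.78, adjusted p = 0.031), and without Rank4 replicate 1 Meg3 was called (1.52, adjusted p = 0.024). Col18a1 (2.83), Ccl4 (2.15), Ctss (2.03), Cpne3 (-1.81), Hbb-bt (-1.84), Ak3 (-1.22) and Grb14 (-1.39) were the other genes with the smallest p in either direction, and none passed.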

How the data were processed

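Single-cell RNA libraries of the mouse medial prefrontal cortex were read from the deposited UMI counts per gene and barcode, which the authors made with Cell Ranger 4.0.0 on mm10, per the submitters' processing notes; per the file headers, replicates 1 to 3 carry version 3.1.0 and replicates 4 and 5 version 4.0.0. Counts were neither normalized nor imputed before deposit as far as the values show. The members and gene lists were chosen with earlier results of these data known.

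Counts of the 30406 genes in both lists were summed per library and cell group and fitted with edgeR 4.0.16 in R 4.3.3 (TMM scaling, quasi-likelihood test, genes with a mean of at least 50 CPM, Benjamini-Hochberg adjustment, threshold 0.05), with DESeq2 1.42.0 as an alternative. Standard errors were taken as the log2 fold change over the square root of F. The 17 genes of the rule were not tested. The rank fit had the gene-list version as a covariate, and all other fits had the library as a block. Scripts were tested on simulated data. Doublets were scored with Scrublet in scanpy 1.11.5 and kept, and leaving them out was an alternative. In Rank1 replicate 1 the caller marked 2 of 6126 barcodes, so a threshold of 0.238, the median of the other libraries, was used there. Shares were compared by exact permutation tests, and intervals and floors cover counting error only.

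Named genes were the 15 highest and 10 lowest called fold changes with 1 direction in every library, up to 4 members of each list by p, and, for rank, the Gkn3 split and the interaction, the 5 smallest p in each direction. List members were also named where the rank p was under 0.05, and further list members are given as examples chosen after their values were seen. The Gkn3 split is described by levels and a count alone, since the rule read that gene. Same-numbered libraries of the ranks deviated together (correlations 0.468, 0.384, 0.433, 0.362 and 0.484), so the numbers were taken to pair the libraries. Nothing in the labels says what a number shares, and p-values measure the spread between pools.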

Additional observations from a re-analysis of the deposited data

Results flagged for a closer look

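Of 88 groups of libraries examined for a single distant value by Dixon's test, 9 had one, where chance gives about 1 in 20. Within a rank, Ace was highest in Rank1 replicate 4 at 133.5 CPM, Hbb-bt in Rank1 replicate 2 at 1001 CPM, and Eln in Rank4 replicate 4 at 226.4 CPM, each far from the other 4 libraries of its rank. Over all 10 libraries, Igfbp3 stood apart in Rank1 replicate 3 at 513.4 CPM, and so did Ccnd2 at 709 CPM. In Rank1 replicate 4 the distant values were Cp at 550.5 CPM, Proser2 at 66.73 CPM and Hmcn1 at 150.1 CPM. Bok stood apart in Rank4 replicate 2 at 93.23 CPM.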

How the results depend on the processing

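Between arterial and other endothelial cells 774 genes were called, against 1354 with no filter on low values (1044 lower), 359 without the library block (225 higher, 134 lower) and 448 at 1000 UMIs (132 higher). Leaving out 1 library gave 621 to 788. Single genes kept direction and side of the threshold in 2090 of 2225 values. Directions reversed for Lsr (-0.046 with no filter, -0.15 at 1000 UMIs), Nos3 (-0.0226 and -0.11), Tie1 (-0.039 with no filter), Klf6 (-0.046 at 1000 UMIs), Atf3 (-0.0012 at 1000 UMIs) and Rgs5 (-1.22 with DESeq2, -0.17 without haemoglobin-rich barcodes, an alternative chosen after seeing the data). The cause was not tested.

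Between ranks 1 gene was called with no filter and 1 within replicates 4 and 5, Hbb-bt in both. Mt1 reversed within replicates 4 and 5 (0.015) and Ece1 at 1000 UMIs (-0.0037). The share of endothelial barcodes differed by 1.72 to 4.37 points, and that of kept barcodes by 0.0535 to 0.506 points, when 1 library was left out. With the replicate block the differences were 3.40 points (p = 0.19) and 0.363 points (p = 0.31) by exact sign-flip permutation, whose smallest p is 0.0625, and 0 genes were called. The block changed no call, and the genes at an unadjusted p under 0.05 went from 119 to 234. The interaction gave 3 genes with a filter of 20 CPM and 0 to 1 when 1 library was left out. The Gkn3 split gave 1 gene with DESeq2, 40 with a filter of 20 CPM and 3 to 20 when 1 library was left out. Libraries hold 13 to 44 arterial barcodes, which limits every comparison by rank.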
